A study of Homo sapiens with 6 samples.

Results

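Keratins are the intermediate filament proteins of epithelial cells, and the 55 human keratin genes of the count tables, of 38606 human genes in all, are described here. They were taken as every human feature named KRT followed by a number and at most 1 of the letters A to C, so pseudogenes and antisense genes of the family were left out. RNA was counted in single nuclei of teratomas, the mixed tumours that pluripotent cells form in an animal, grown from the H1 human embryonic stem cell line in the flank of immunodeficient NSG mice from cells mixed with Matrigel. There were 2 libraries of a line labelled DATG (the ΔATG form of LNCPRESS1, whose exact change the labels do not give), 2 of an LNCPRESS1 knockout line (KO) and 2 of the wild type line (WT). LNCPRESS1 is a long non-coding RNA, and all 3 lines share the H1 background. The labels do not say whether each line is 1 clone, nor whether libraries of a group came from separate tumours, so the p-values measure only the spread between these libraries. A mouse host contributed cells to every tumour, and the comparisons use human nuclei only.

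A keratin filament is built from pairs of 1 type I and 1 type II chain, so an epithelial cell expresses at least 1 of each type. Which pair a cell uses follows its tissue. KRT8 and KRT18, with KRT19 and KRT7, are the keratins of simple, single-layered epithelia such as gut, liver and trophoblast, and KRT20 belongs to the surface cells of the gut. KRT5 with KRT14 or KRT15 marks the basal layer of stratified epithelia, KRT4 with KRT13 the upper layers of moist mucosa such as oesophagus, and KRT1 with KRT10 the upper layers of skin. Filaments are anchored at desmosomes, the cell to cell junctions, and at hemidesmosomes, which fix the cell to its basement membrane.

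The family lies in 2 clusters of the genome. In GENCODE 29 on GRCh38, 27 members lie on chromosome 12 between 52168996 and 52952901, and 28 on chromosome 17 between 40654665 and 41624842. All 26 type II genes are on chromosome 12, together with KRT18, the 1 type I gene there, which ends the cluster beside its partner KRT8. KRT8 (52897187 to 52949954, minus strand) and KRT18 (52948871 to 52952901, plus strand) overlap by 1084 bases. On chromosome 17, KRT13 (41500981 to 41505705), KRT15 (41513743 to 41522529) and KRT19 (41523617 to 41528308), all on the minus strand, follow each other with gaps of 8038 and 1088 bases.

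The promoter set used here, from RefSeq on GRCh38.p14, held a promoter for 34 members. KRT19, KRT18, KRT13, KRT17, KRT15 and KRT7 were not among them. The letters ATAAA or TATA, searched on the gene's strand between 45 and 16 bases before the start and free to overlap, stand in 30 of these 34, or 88.2%, and in 9.22% of all 35116 promoters of the table. The 100 bases before the start are shown for a basal keratin (KRT5, chr12:52520395-52520494), a mucosal one (KRT4, chr12:52814117-52814216), the gut keratin KRT20 (chr17:40885243-40885342) and KRT10 (chr17:40822615-40822714). KRT8 (chr12:52926470-52926569) is shown because it is 1 of the 4 members without these letters in the window. That window lies inside the KRT8 gene span given above, so the absence holds for this start and not for the whole gene. In the promoter set, 2 members had more than 1 start. All 5 genes are on the minus strand and are written 5′ to 3′ with the matched letters in capitals.
KRT5: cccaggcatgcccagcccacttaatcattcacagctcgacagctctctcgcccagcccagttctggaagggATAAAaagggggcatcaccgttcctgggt
KRT4: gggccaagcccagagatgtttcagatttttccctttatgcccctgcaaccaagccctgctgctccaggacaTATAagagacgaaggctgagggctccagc
KRT20: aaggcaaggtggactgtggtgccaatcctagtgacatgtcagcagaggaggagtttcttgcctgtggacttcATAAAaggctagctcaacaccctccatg
KRT10: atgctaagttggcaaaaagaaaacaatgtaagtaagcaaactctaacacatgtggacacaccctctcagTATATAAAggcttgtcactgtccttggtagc
KRT8: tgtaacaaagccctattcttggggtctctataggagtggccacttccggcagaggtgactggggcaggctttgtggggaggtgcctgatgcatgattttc
The match is a description of the letters in this window and says nothing of the factors that act there.

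The filtered data held 49204 human nuclei: 10829 and 5589 in DATG, 9224 and 7376 in KO, and 5254 and 10932 in WT (replicates 1 and 2, the order used throughout). Human unique molecular identifiers (UMIs, counted molecules) summed to between 19522240 and 33693906 per library, with a median of 2430 to 3843 per nucleus. DATG replicate 2 stood apart, with 35.5% of its barcodes mixed between human and mouse against 4.75% to 13.2% in the others, so DATG results are also given without it where they turn on it. LNCPRESS1 itself had 1 and 3 UMIs in DATG, 3 and 0 in KO and 6 and 2 in WT, too few to check the labels. The labelled cell type, embryonic stem cell, describes the injected cells: pluripotent-like nuclei numbered 329. Pairs of libraries shared at most 45 cell barcodes.

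The keratins held 23991 of 177372062 human UMIs, or 135 counts per 1000000 human UMIs (CPM). Of the 55 members, 39 had at least 1 UMI and 16 had none, which for 3 counts over all nuclei allows up to 0.0169 CPM. Only 9 members averaged at least 1 CPM over the 6 libraries: KRT19, KRT8, KRT18, KRT10, KRT13, KRT17, KRT15, KRT5 and KRT7. The first 4 held 87.6% of all keratin UMIs. At the other end, 22 members had between 1 and 19 UMIs, among them KRT14, the usual basal partner of KRT5, with 18, and KRT6A, KRT6B and KRT6C, which epithelia make after wounding, with 13, 8 and 5. The 17 hair and nail keratins held 117 UMIs together and the 10 keratins of the hair follicle sheath held 13. UMIs count 3′ ends and are not divided by gene length, so the shares of different members compare counted molecules.

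Among the keratins of simple epithelia, KRT19, a type I chain that occurs without a fixed partner, was at 34.0 and 69.5 CPM in DATG libraries, 25.0 and 30.2 CPM in KO libraries and 32.8 and 71.1 CPM in WT libraries. KRT8, the first type II keratin of the embryo, was at 27.3 and 41.4 CPM in DATG, 12.4 and 20.3 CPM in KO and 33.9 and 50.9 CPM in WT. KRT18, its type I partner, was at 23.8 and 21.9 CPM in DATG, 11.6 and 15.7 CPM in KO and 21.9 and 50.9 CPM in WT. For all 3 genes both KO libraries lay below every DATG and WT library. Of all tested genes, 24.6% had both KO libraries below both WT libraries and 15.8% had them below both DATG libraries. The share with both was not counted. The KRT18 UMIs of trophoblast and amnion-like nuclei were then left out, with the library totals kept. KRT18 stood at 22.5 and 14.2 CPM in DATG, 11.6 and 15.3 CPM in KO and 21.8 and 47.4 CPM in WT. These nuclei were 11.2% of DATG replicate 2, so keeping the total lowers that library most. Whether it falls below KO replicate 2 is not settled by these values. KRT7, found in glandular and trophoblast epithelium, was at 1.11 and 4.35 CPM in DATG, 0.404 and 0.623 CPM in KO and 0.777 and 1.46 CPM in WT. KRT20 was at 0.33 and 0.205 CPM in DATG, 0.438 and 0.386 CPM in KO and 1.96 and 0.922 CPM in WT. For KRT20 both WT libraries were the highest and both DATG libraries the lowest. The share of all genes in that order was not counted. KRT23, the last simple keratin, ranged from 0.318 to 0.82 CPM with its groups overlapping except for DATG replicate 2 at the top.

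**Figure D1:**
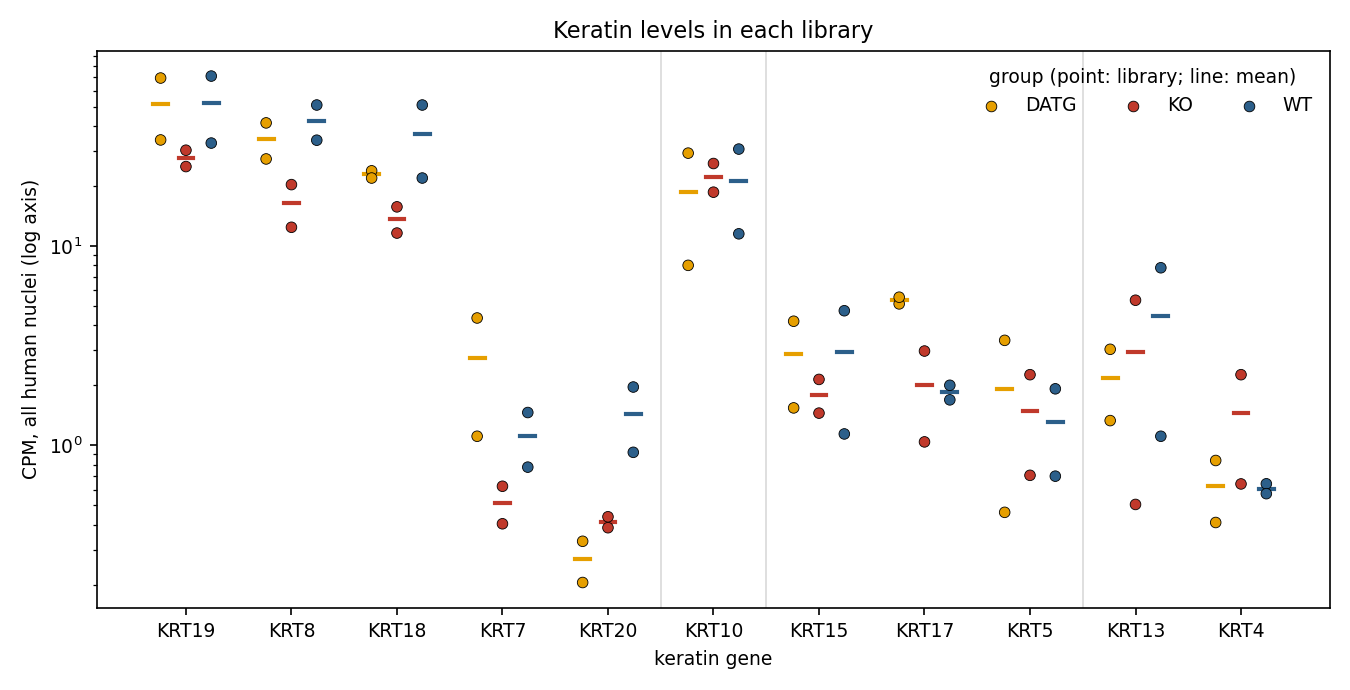
Level of 11 keratins in each library, in CPM of all human nuclei on a log axis; each point is 1 library and each line the mean of the 2 libraries of DATG, KO or WT. The points of KRT8, KRT18 and KRT19 lie lowest in KO (11.6 to 30.2 CPM), and those of KRT10 and KRT13 overlap between all groups.

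The basal keratins were scarcer. KRT17, made in basal cells of glands and in activated epithelium, was at 5.12 and 5.53 CPM in DATG, 1.04 and 2.97 CPM in KO and 1.69 and 2.0 CPM in WT. Both DATG libraries thus lay above all others. Of all tested genes, 6.84% had both DATG libraries above both WT libraries and 15.8% had them above both KO libraries. KRT15 was at 4.19 and 1.54 CPM in DATG, 1.45 and 2.14 CPM in KO and 4.73 and 1.14 CPM in WT. KRT5 was at 3.36 and 0.461 CPM in DATG, 0.707 and 2.26 CPM in KO and 1.92 and 0.7 CPM in WT. For KRT15 and KRT5 the groups overlapped. Of the suprabasal keratins, KRT13 was at 3.03 and 1.33 CPM in DATG, 0.505 and 5.34 CPM in KO and 7.77 and 1.11 CPM in WT. KRT4, its type II partner, was at 0.839 and 0.41 CPM in DATG, 0.64 and 2.26 CPM in KO and 0.641 and 0.572 CPM in WT. KRT10 was at 29.2 and 7.99 CPM in DATG, 25.9 and 18.6 CPM in KO and 11.5 and 30.6 CPM in WT. All groups overlapped for these 3 genes, and DATG replicate 2 was the lowest library for KRT10. KRT1, the partner of KRT10 in skin, had 15 and 1 UMIs in DATG, 0 and 1 in KO and 13 and 3 in WT.

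Summed by filament type, the type I chains stood at 102 and 111 CPM in DATG, 68.3 and 77.4 in KO and 83.9 and 160 in WT. The type II chains stood at 34.4 and 50.6 CPM in DATG, 14.5 and 26.3 in KO and 38.3 and 54.4 in WT. KO libraries were thus the lowest for both types. All keratins together stood at 136 and 161 CPM in DATG, 82.8 and 104 in KO and 122 and 214 in WT.

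The lower KO values did not pass the test against WT. The edgeR quasi-likelihood test, with Benjamini-Hochberg adjustment over 26230 genes, called 0 of the 15 keratins that passed its filter on low counts, against a background of 0% of all genes called. KRT8 had a log2 fold change of -1.34 (SE 0.43, edgeR adjusted p = 0.912) and was lower in both KO libraries. KRT18 had -1.39 (SE 0.45, edgeR adjusted p = 0.912). KRT20 had -1.77 (SE 0.55, edgeR adjusted p = 0.907). KRT19 had -0.89 (SE 0.53, edgeR adjusted p = 0.999) and KRT7 -1.09 (SE 0.83, adjusted p = 0.999). These fold changes are on TMM-scaled counts. Of the 15 keratins, 3 had an unadjusted p under 0.05 (KRT8, KRT18 and KRT20), beside 5.18% of all genes. Both KO libraries lay below both WT libraries for 6 of the 15 (KRT1, KRT7, KRT8, KRT18, KRT19 and KRT20), against 24.6% of all tested genes, and above them for 0 of 15, against 20.1%. DESeq2 on all 6 libraries also called 0 keratins (0.618% of all genes). In a fit chosen after seeing the data, DESeq2 on the 4 KO and WT libraries alone, KRT8 (adjusted p = 0.00723) and KRT18 (adjusted p = 0.0178) were called, beside 6.19% of all genes, while edgeR on those 4 libraries called 0 keratins and 1.91% of all genes.

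In DATG against WT the same test called 0 of 15 keratins and 0% of all genes. DESeq2 called 0 keratins and 0.316% of all genes, and 0 keratins and 0.217% on the 4 libraries of these groups alone. KRT17 had a log2 fold change of 1.68 (SE 0.61, edgeR adjusted p = 0.999) and KRT20 -2.24 (SE 0.59, edgeR adjusted p = 0.999). These were the 2 keratins with an unadjusted p under 0.05, beside 3.07% of all genes. KRT18 had -0.53 (SE 0.45, edgeR adjusted p = 0.999), which was 0.23 without WT replicate 2. Without DATG replicate 1 edgeR called 3 keratins (KRT7, KRT80 and KRT86) and 7.41% of all genes. Both DATG libraries lay below both WT libraries for KRT20 and KRT40, a hair keratin (19.1% of all tested genes), and above them for KRT17 and KRT222, a truncated member of the family (6.84% of all tested genes).

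In DATG against KO, edgeR again called 0 of 15 keratins and 0% of all genes. DESeq2 called 0 keratins and 0.282% of all genes, and 0 keratins and 0.152% on the 4 libraries of these groups alone. KRT7 had a log2 fold change of 2.55 (SE 0.85, edgeR adjusted p = 0.701), KRT17 1.51 (SE 0.61), KRT8 1.20 (SE 0.43), KRT19 1.06 (SE 0.53) and KRT18 0.85 (SE 0.45), all with an adjusted p of 0.701. Both DATG libraries lay above both KO libraries for 6 of the 15 (KRT1, KRT7, KRT8, KRT17, KRT18 and KRT19), against 15.8% of all tested genes, and below them for KRT20 and KRT40, against 25.0%. An unadjusted p under 0.05 was reached by KRT1, KRT7, KRT8 and KRT17, beside 5.46% of all genes. The 3 comparisons share libraries, so their values are not independent. The values differed strongly between the 2 DATG libraries: without DATG replicate 2, KRT7 had 1.13, KRT8 0.77 and KRT19 0.34, and without DATG replicate 1, KRT7 had 3.25 (adjusted p = 0.00537), KRT8 1.52 (adjusted p = 0.0329) and KRT19 1.52 (adjusted p = 0.0487). In that last fit, where DATG is 1 library, edgeR called 5 keratins (KRT7, KRT8, KRT19, KRT80 and KRT86) and 22.2% of all genes.

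The nuclei were grouped into types by clustering that used no keratin gene and named by marker lists that held none, so the levels below were not used to define the types; they are descriptions, with no test. Epithelial types made up 11.9% and 35.0% of human nuclei in DATG, 10.5% and 12.3% in KO and 27.3% and 22.0% in WT. They held 34.5% and 59.9% of the keratin UMIs in DATG, 27.9% and 32.2% in KO and 48.6% and 39.1% in WT. Of the 8951 nuclei counted as epithelial, 1574 were choroid plexus-like, 1471 ciliated cell-like and 687 retinal pigment epithelium-like. Both KO libraries lay below both WT libraries in the share of epithelial nuclei and in the keratin level, and DATG replicate 1 lay within the KO range in the share but above it in the level. In the summed counts, fewer nuclei of a type and less RNA per nucleus cannot be told apart.

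The summed keratin level was 713 ± 187 CPM in squamous epithelium-like nuclei (SD, n = 6 libraries, 1058 nuclei) and 695 ± 237 CPM in trophoblast and amnion-like nuclei (n = 2, 756 nuclei). Hepatocyte-like nuclei had 378 ± 138 CPM (n = 6), gut epithelium-like nuclei 327 ± 194 CPM (n = 5) and pancreas epithelium-like nuclei 175 ± 78.0 CPM (n = 3), each over libraries with at least 20 such nuclei. Squamous-like and trophoblast and amnion-like nuclei did not differ beyond their spread, nor did hepatocyte and gut-like or gut and pancreas-like nuclei. Ciliated cell-like (81.0 ± 33.4 CPM, n = 5), retinal pigment epithelium-like (64.7 ± 23.8 CPM, n = 5) and choroid plexus-like nuclei (60.3 ± 22.3 CPM, n = 6), which are counted among the epithelial types here, were within the spread of neuron-like nuclei, with 60.5 ± 21.3 CPM (n = 6). Keratin UMIs were not confined to epithelium or low in all other types: in erythroid-like nuclei (3133, led by HBE1 and HBG2, globin genes) all keratins together were at 268 and 207 CPM in DATG, 217 and 275 CPM in KO and 249 and 363 CPM in WT. There KRT10 was at 84.2 and 33.2 CPM in DATG, 112 and 109 CPM in KO and 53.7 and 138 CPM in WT, and KRT19 at 61.3 and 70.1 CPM in DATG, 41.1 and 47.5 CPM in KO and 58.6 and 82.4 CPM in WT. These nuclei were shallow, with a median of 750 to 1141 UMIs by library. No type was taken as the level of free RNA.

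**Figure D2:**
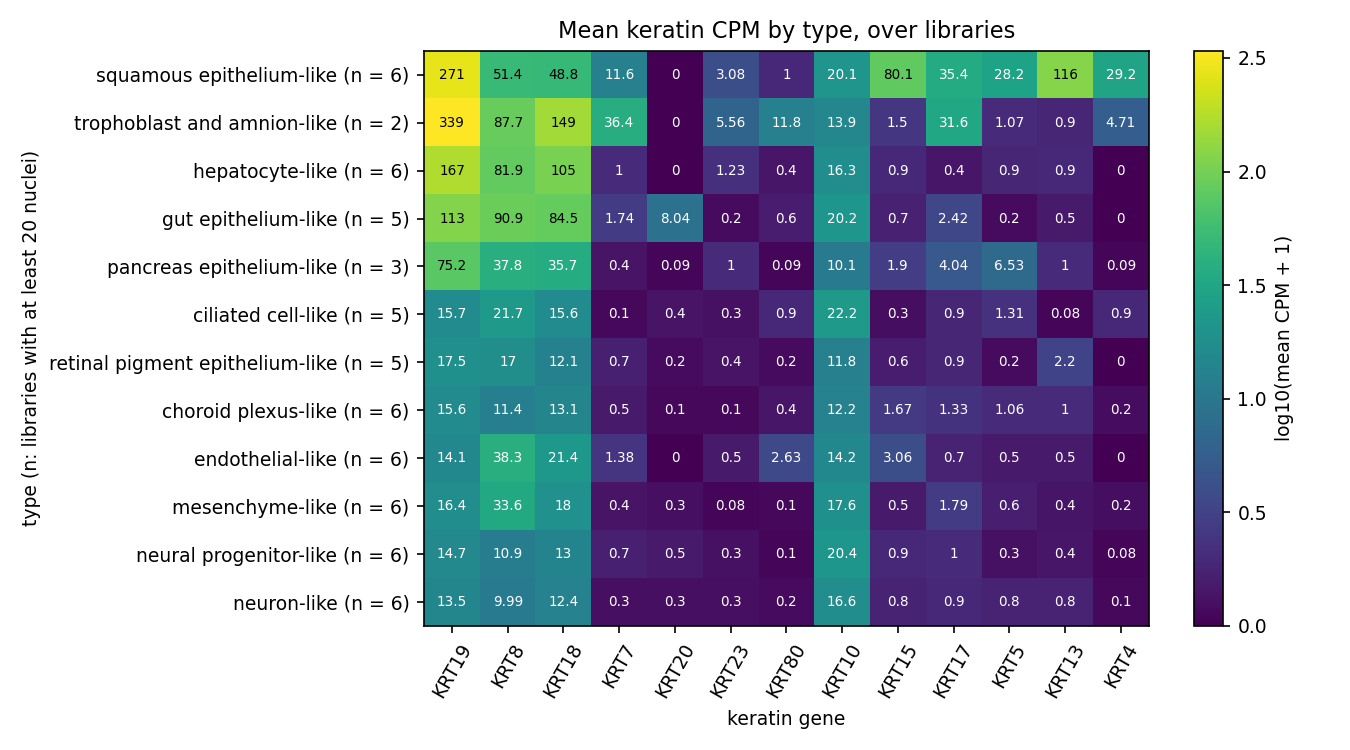
Mean CPM of 13 keratins (columns) in 12 types (rows), over the libraries with at least 20 nuclei of the type (n); the number in each cell is the mean and the colour is log10 of the mean plus 1. KRT13, KRT15, KRT5 and KRT4 stand out in squamous epithelium-like nuclei, KRT7 and KRT80 in trophoblast and amnion-like nuclei, KRT20 in gut epithelium-like nuclei, and KRT10 is at 10.1 to 22.2 CPM in every type shown.

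Squamous epithelium-like nuclei carried both the basal and the mucosal set. KRT13 was at 96.2 and 102 CPM in DATG, 15.0 and 239 CPM in KO and 198 and 47.5 CPM in WT squamous nuclei, and 76.0% of all KRT13 UMIs were counted in these nuclei, which held 2.11% of the human UMIs. KRT15 was at 110 and 136 CPM in DATG, 28.5 and 79.5 CPM in KO and 88.2 and 38.6 CPM in WT. KRT5 averaged 28.2 ± 22.9 CPM, KRT4 29.2 ± 35.9 CPM and KRT17 35.4 ± 13.4 CPM (SD, n = 6). KRT19 was the most even, at 328 and 246 CPM in DATG, 237 and 304 CPM in KO and 193 and 318 CPM in WT. In neuron-like nuclei KRT13 averaged 0.762 CPM, KRT15 0.769 CPM and KRT19 13.5 CPM. The skin pair did not follow: KRT10 averaged 20.1 ± 9.04 CPM in squamous-like nuclei and 16.6 ± 9.74 CPM in neuron-like nuclei.

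Finer clustering split these nuclei. Of the 1058, 666 formed a cluster led by DSG3, a desmosomal cadherin of stratified epithelium, and TP63, the regulator of its basal cells, with TP63 at 576 CPM. Another 373 formed a cluster that no marker list named, with TP63 at 13.6 CPM and ANXA10, CBLIF and ATP4B, genes of stomach epithelium, at 75.8, 53.1 and 36.4 CPM pooled over libraries. These 3 genes were uneven within it: all were at 0 CPM in the 16 nuclei of DATG replicate 2, and the 104 nuclei of KO replicate 1 had ANXA10 and ATP4B at 0 CPM and CBLIF at 6.73 CPM. The cluster is called TP63-low here. KRT13 was at 180 CPM in the TP63-high nuclei and 13.6 CPM in the TP63-low nuclei. KRT15 was at 115 CPM in the TP63-high and 3.03 CPM in the TP63-low nuclei, and KRT19 at 355 CPM in the TP63-high and 121 CPM in the TP63-low nuclei. KRT8 was at 55.2 CPM in the TP63-high nuclei and 40.9 CPM in the TP63-low ones, and KRT18 at 37.9 CPM in the TP63-high and 43.2 CPM in the TP63-low ones. These levels are pooled over the 6 libraries. The TP63-high share of the squamous-like nuclei was 75.3% and 64.5% in DATG, 48.5% and 64.3% in KO and 53.6% and 66.4% in WT. Within the TP63-high nuclei KRT13 still ranged widely, at 127 and 171 CPM in DATG, 27.2 and 369 CPM in KO and 305 and 76.7 CPM in WT, so the groups overlapped.

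**Figure D3:**
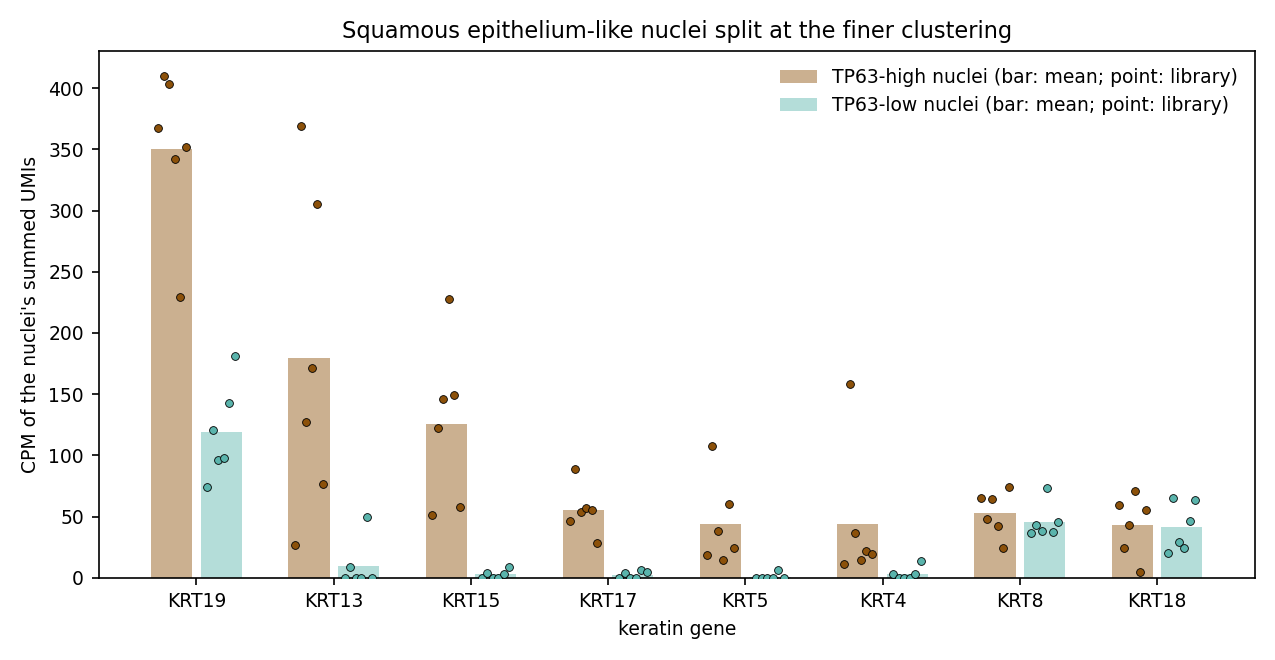
CPM of 8 keratins in the 666 TP63-high nuclei and the 373 TP63-low nuclei that finer clustering separated within the squamous epithelium-like type; bars are means over 6 libraries and points are libraries. KRT13, KRT15, KRT17, KRT5 and KRT4 are near 0 in most libraries of the TP63-low nuclei, while KRT8 and KRT18 overlap between both.

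Within squamous-like nuclei edgeR called 0 of 10 tested keratins in each of the 3 comparisons, beside 0.00863% of all genes for DATG against WT and DATG against KO and 0% for KO against WT. DESeq2 called 0 keratins, beside 0.0259% of all genes for DATG against WT, 0.0173% for DATG against KO and 0% for KO against WT. The 1 unadjusted p under 0.05 was that of KRT15 in DATG against KO, with a log2 fold change of 1.15 (SE 0.52, edgeR adjusted p = 1.0), beside 2.67% of all genes. None of the 10 reached it in DATG against WT (2.97% of all genes) or KO against WT (2.57%). In a fit added later, edgeR was run on the squamous-like nuclei as named at the finer clustering. There 0 of 9 tested keratins had an unadjusted p under 0.05 in each comparison. Of 9280 genes, 340 had one in DATG against WT, 264 in DATG against KO and 289 in KO against WT. The largest keratin log2 fold change in DATG against KO was 0.95 in that fit.

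Trophoblast and amnion-like nuclei were named from 7 of 12 markers: VGLL1, VTCN1, GABRP, GATA3, TFAP2C, IGFBP3 and HAND1. The other markers of the list, CGA, CYP19A1, GCM1, ERVW-1 and PSG3, did not reach the naming rule. These nuclei came mostly from 1 library, with 627 from DATG replicate 2, 105 from WT replicate 2 and at most 13 in any other. They expressed the simple set at high levels. KRT19 was at 264 CPM in DATG replicate 2 and 414 CPM in WT replicate 2, KRT8 at 83.2 CPM in DATG replicate 2 and 92.2 CPM in WT replicate 2, and KRT18 at 64.4 CPM in DATG replicate 2 and 234 CPM in WT replicate 2. KRT7 was at 32.0 CPM in DATG replicate 2 and 40.7 CPM in WT replicate 2, KRT17 at 35.4 CPM in DATG replicate 2 and 27.9 CPM in WT replicate 2. KRT80, a type II keratin of many epithelia, was at 14.9 CPM in DATG replicate 2 and 8.58 CPM in WT replicate 2. In neuron-like nuclei KRT7 averaged 0.258 CPM and KRT80 0.18 CPM. In DATG replicate 2, 88.2% of the KRT7 UMIs and 76.9% of the KRT17 UMIs were counted in these nuclei. With their UMIs left out, KRT7 stood at 0.93 and 0.51 CPM in DATG, 0.404 and 0.534 CPM in KO and 0.777 and 0.856 CPM in WT, and KRT17 at 4.16 and 1.28 CPM in DATG, 0.939 and 2.97 CPM in KO and 1.69 and 1.59 CPM in WT. DATG replicate 2 then lay within the range of the KO and WT libraries for both genes. The 3 such nuclei of DATG replicate 1 held 35 KRT5 UMIs, against 5 in the 627 of DATG replicate 2. KRT86, a hair keratin at 7.05 CPM in these nuclei, overlaps KRT7 by 2887 bases on the same strand, so its reads may belong to KRT7.

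Gut epithelium-like nuclei numbered 78 and 761 in DATG, 16 and 41 in KO and 316 and 815 in WT. KRT20 was at 2.89 and 1.44 CPM in DATG gut-like nuclei, 5.86 CPM in KO replicate 2, the 1 KO library with at least 20, and 22.8 and 7.23 CPM in WT. These nuclei held 64 of the 128 KRT20 UMIs of the series. With those 64 UMIs left out and the library totals kept, KRT20 stood at 0.3 and 0.051 CPM in DATG, 0.438 and 0.356 CPM in KO and 0.61 and 0.318 CPM in WT, and WT overlapped KO. KRT20 in DATG against WT had a log2 fold change of -2.93 within them (SE 0.93, edgeR adjusted p = 0.461), beside 0.0423% of all genes called and 7.44% with an unadjusted p under 0.05. KRT8 was at 214 and 49.4 CPM in DATG gut-like nuclei, 70.4 CPM in KO replicate 2 and 54.6 and 66.6 CPM in WT, and KRT18 was at 208 and 39.4 CPM in DATG, 58.6 CPM in KO replicate 2 and 41.5 and 74.9 CPM in WT. DATG replicate 1 alone was high for both, and without DATG replicate 2 edgeR called KRT8 (log2 fold change 1.90, adjusted p = 0.0091) and KRT18 (1.91, adjusted p = 0.0499), beside 1.21% of all genes. With all libraries edgeR called 0 of 6 keratins, and DESeq2 0, beside 0.193% of all genes.

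Hepatocyte-like nuclei, with all 14 hepatocyte markers, showed KRT18 at 270 and 49.8 CPM in DATG, 59.3 and 71.8 CPM in KO and 74.9 and 106 CPM in WT. KRT8 was at 176 and 62.7 CPM in DATG, 40.5 and 71.8 CPM in KO and 64.2 and 76.6 CPM in WT. DATG replicate 1 had 30 hepatocyte-like nuclei, with 40 KRT18 and 26 KRT8 UMIs, against 51 to 276 such nuclei in the other libraries. As in the gut-like nuclei, DATG replicate 1 was the highest library for both chains of the pair. KRT19 averaged 167 ± 36.9 CPM (SD, n = 6) without that pattern. KRT7 was at 0 to 3.56 CPM, and KRT20 and KRT4 had 0 UMIs in these nuclei. edgeR called 0 of 4 tested keratins in each comparison (0% of all genes). None had an unadjusted p under 0.05, beside 4.69% of all genes in DATG against WT, 7.34% in DATG against KO and 1.75% in KO against WT. DESeq2 called 0 keratins, beside 0.131% of all genes in DATG against WT, 0.289% in DATG against KO and 0% in KO against WT.

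**Figure D4:**
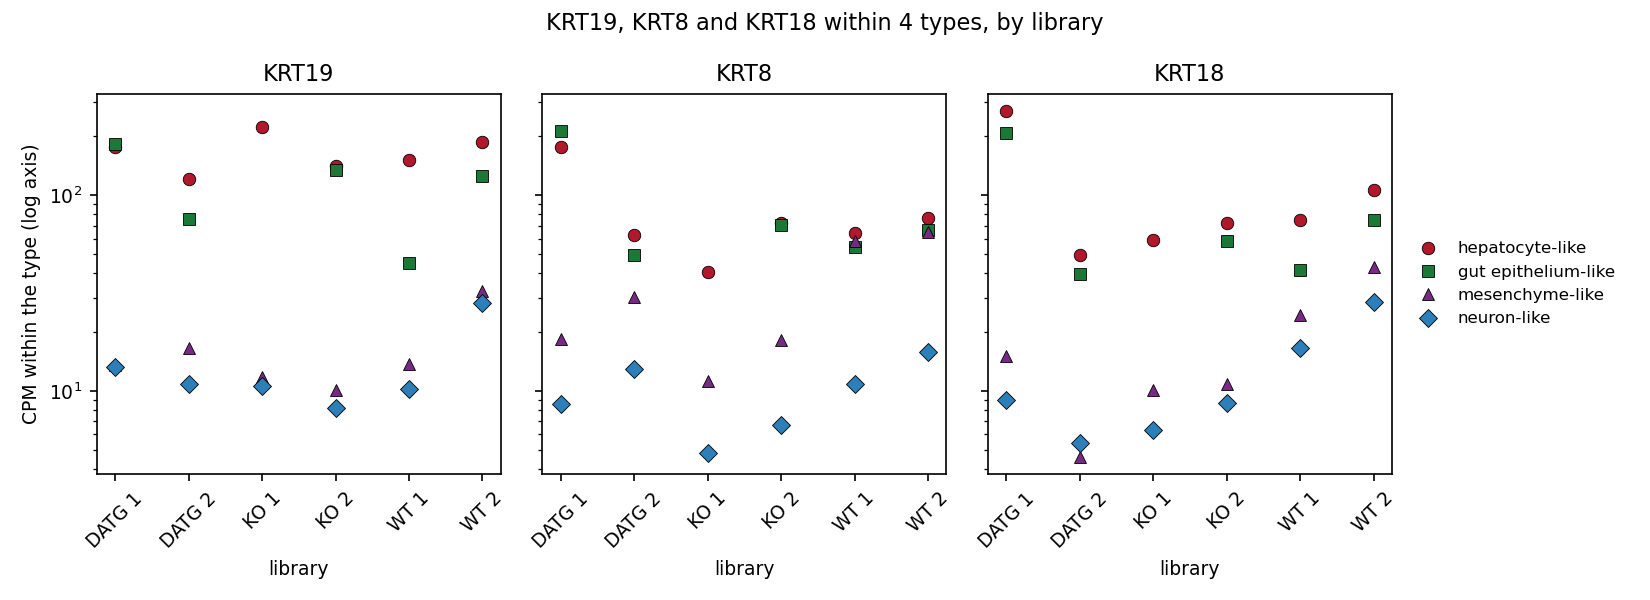
CPM of KRT19, KRT8 and KRT18 within 4 types in each library (DATG, KO, WT; log axis); each point is 1 library with at least 20 nuclei of the type. DATG 1 is the highest library for KRT8 and KRT18 in hepatocyte-like and gut epithelium-like nuclei, and KRT8 in mesenchyme-like nuclei is highest in both WT libraries (58.4 and 65.0 CPM).

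In the weakly expressing epithelia, KRT18 was at 2.19 and 9.33 CPM in KO ciliated cell-like nuclei and 14.2 and 32.9 CPM in WT ones, with a log2 fold change of -1.96 (SE 0.69, edgeR adjusted p = 1.0) in KO against WT. It was -2.36 (adjusted p = 0.00852, with 0.424% of all genes called) without WT replicate 1 and -1.01 (adjusted p = 0.703, with 1.4% of all genes called) without WT replicate 2. In retinal pigment epithelium-like nuclei KRT19 was at 11.4 and 8.6 CPM in KO and 24.2 and 33.7 CPM in WT (log2 fold change -1.54, SE 0.52, edgeR adjusted p = 0.651). KRT8 there was at 7.57 and 10.5 CPM in KO and 21.4 and 26.6 CPM in WT (log2 fold change -1.32, SE 0.54, edgeR adjusted p = 0.783). In neuron-like nuclei KRT8 was likewise lower in both KO libraries, at 4.81 and 6.72 CPM against 10.9 and 15.9 CPM in WT, and in erythroid-like nuclei it was at 30.9 and 37.4 CPM in KO and 43.9 and 63.4 CPM in WT. Schwann cell and neural crest-like nuclei had KRT8 at 7.41 and 5.96 CPM in KO and 14.9 and 28.5 CPM in WT. Both KO libraries were also lower in each neural progenitor-like cluster and in mesenchyme-like nuclei, described below. KO and WT overlapped for KRT8 in ciliated cell-like, choroid plexus-like and squamous-like nuclei. Ciliated cell-like nuclei had 23.0 and 18.7 CPM in KO and 14.2 and 25.8 CPM in WT. Choroid plexus-like nuclei had 16.5 and 4.06 CPM in KO and 12.7 and 9.67 CPM in WT. Squamous-like nuclei had 52.5 and 47.4 CPM in KO and 29.8 and 69.8 CPM in WT. The share of all genes without overlap was not counted within types. edgeR called 0.00738% of all genes in ciliated cell-like nuclei and 0% in retinal pigment epithelium-like and choroid plexus-like nuclei, and no keratin was called by edgeR or DESeq2 in these 3 types. For KO against WT, DESeq2 called 0.00738% of all genes in ciliated cell-like, 0.0086% in retinal pigment epithelium-like and 0.0155% in choroid plexus-like nuclei. In choroid plexus-like nuclei it called 0% for DATG against WT and 0.0155% for DATG against KO. KRT18 in ciliated cell-like nuclei, and KRT8 and KRT19 in retinal pigment epithelium-like nuclei, had an unadjusted edgeR p under 0.05, beside 2.16% and 5.77% of all genes. None of 4 did in choroid plexus-like nuclei, beside 1.49% of all genes in DATG against WT, 2.97% in DATG against KO and 1.8% in KO against WT.

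KRT8 was also counted outside epithelium. In mesenchyme-like nuclei it was at 18.4 and 30.3 CPM in DATG, 11.3 and 18.2 CPM in KO and 58.4 and 65.0 CPM in WT, so both WT libraries lay above the rest, and in WT these nuclei gave 33.3% and 35.3% of all KRT8 UMIs. The mesenchyme-like type joined 2 clusters. In the one led by C7, ADAMTS14 and PAMR1, KRT8 was at 53.5 and 54.0 CPM in DATG, 55.7 CPM in KO replicate 2 and 82.2 and 71.7 CPM in WT. That cluster made up 2.33% and 3.63% of DATG nuclei, 1.4% of KO replicate 2 and 15.1% and 24.5% of WT nuclei, with under 20 nuclei in KO replicate 1. In the other cluster, led by TBX5 and IGF1, KRT8 was at 14.5 and 8.79 CPM in DATG, 10.9 and 16.0 CPM in KO and 22.8 and 40.5 CPM in WT. With the UMIs of all mesenchyme-like nuclei left out, KRT8 stood at 22.8 and 39.7 CPM in DATG, 10.5 and 17.1 CPM in KO and 22.6 and 32.9 CPM in WT, and both KO libraries were still the lowest. The unnamed clusters gave another 35.2% and 43.0% of KRT8 UMIs in DATG, 17.7% and 45.8% in KO and 18.2% and 21.9% in WT. They were not counted as epithelial, but whether some of them are epithelial was not tested. Pooled over libraries, KRT8 ranged from 6.59 to 69.4 CPM between these clusters. In the unnamed cluster with PKHD1L1 among its leading genes, KRT8 was at 62.8 CPM and KRT19 at 150 CPM.

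**Figure D5:**
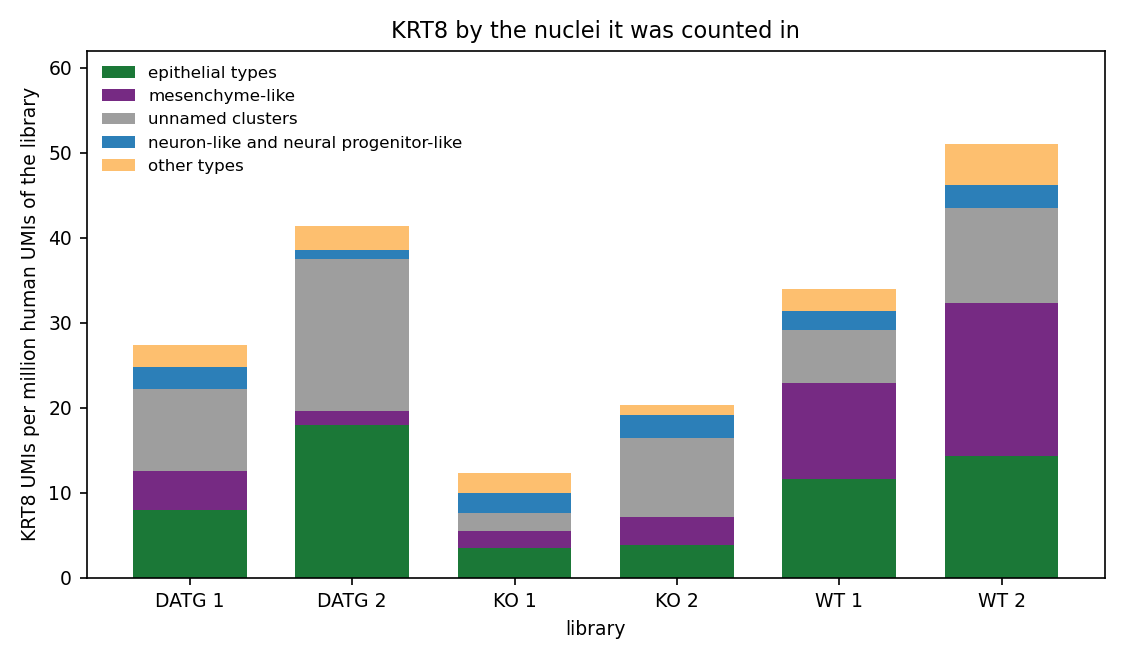
KRT8 level of each library in CPM of all its human nuclei, stacked by the type of nucleus its UMIs were counted in; DATG, KO and WT stand from left to right. Epithelial types gave 8.04 and 18.0 CPM in DATG, 3.5 and 3.89 in KO and 11.6 and 14.3 in WT, and mesenchyme-like nuclei gave 4.52 and 1.69 in DATG, 1.95 and 3.21 in KO and 11.3 and 18.0 in WT.

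A nucleus making filaments should hold both chain types. With each nucleus thinned to 1000 UMIs, 49 of 1016 squamous-like nuclei (4.82%, 95% exact binomial interval 3.59% to 6.33%) had at least 1 type I and 1 type II keratin UMI, against 6 of 6689 neuron-like nuclei (0.0897%, 0.0329% to 0.195%). The share was 4.6% in trophoblast and amnion-like, 2.61% in hepatocyte-like and 1.62% in gut-like nuclei. Unthinned, it was 18.7% in squamous-like, 23.8% in trophoblast and amnion-like, 17.9% in hepatocyte-like and 8.73% in gut-like nuclei, and 0.632% in neuron-like nuclei, with median depths of 2898 UMIs in squamous-like and 2867 in neuron-like nuclei. Intervals cover counting error only. Thinning left out 42 squamous-like and 278 neuron-like nuclei as too shallow.

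Free RNA can place keratin UMIs in nuclei that made none. Human UMIs counted in mouse nuclei held 173 keratin UMIs of 374718, or 462 CPM, against 135 CPM in human nuclei. By library the value was 456 and 333 CPM in DATG, 531 and 448 in KO and 426 and 979 in WT. WT replicate 2 was also the highest library for the summed keratins of neuron-like nuclei, at 97.9 CPM, against 41.0 to 71.3 CPM in the others. The part of free RNA in the group values was not tested. The mitochondrial share of human UMIs was 0.505% and 0.485% in DATG and at most 0.183% in KO and WT, and its part in the DATG values was not tested. KRT10 overlaps KRT10-AS1, a gene of the opposite strand that was counted separately, by 3490 bases. No source used here gives the strand setting of the counting, so the split of reads between the 2 is uncertain. The same holds for KRT8 and KRT18 where they overlap. Near-identical copies within the family (KRT6A, KRT6B and KRT6C; KRT14, KRT16 and KRT17; KRT81, KRT83 and KRT86) and the many pseudogenes of KRT8 and KRT18 make the split between them uncertain.

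Genes whose products anchor, bundle or accompany keratin filaments were read from lists. As the same edgeR fits called 0% of all 26230 genes, the counts that follow say nothing particular to the lists. Of 13 desmosome genes, 0 passed edgeR's test in either direction in any comparison, and likewise 0 of 8 hemidesmosome and basement membrane genes, 0 of 6 plakin linkers, 0 of 13 epithelial adhesion genes, 0 of 15 epithelial regulators, 0 of the 3 tested of 15 cornified envelope genes, 0 of 16 other intermediate filament genes and 0 of 7 keratin filament regulators. The epithelial adhesion list had a median log2 fold change of -1.57 in KO against WT (12 of 13 below 0; all genes 0.01), 0.00 in DATG against WT (all genes 0.02) and 1.26 in DATG against KO (13 of 13 above 0; all genes 0.03). EPCAM, an adhesion molecule of simple epithelia, was at 10.9 and 50.4 CPM in DATG, 14.5 and 10.6 CPM in KO and 34.7 and 50.1 CPM in WT. The desmosome list had medians of -0.75, 0.45 and 1.38 in KO against WT, DATG against WT and DATG against KO. DSP, the desmosomal plakin that holds keratin filaments, was at 20.5 and 72.2 CPM in DATG, 23.5 and 28.3 CPM in KO and 51.5 and 55.5 CPM in WT. For EPCAM and DSP both KO libraries lay below both WT libraries, DATG replicate 1 was as low as KO, and DATG replicate 2 was as high as WT or higher, whereas KRT8 in DATG replicate 1, at 27.3 CPM, lay above both KO libraries. VIM, the intermediate filament of mesenchyme, was at 765 and 149 CPM in DATG, 454 and 381 CPM in KO and 239 and 465 CPM in WT.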

How the data were processed

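Nuclei from frozen teratomas were profiled with the 10x Genomics 3′ v3.1 chemistry, per the labels' protocols. The authors deposited, for each of 6 libraries, raw UMI counts per gene and barcode, which are not normalized. Cell Ranger 8.0.1, GRCh38 and GRCm38 are named in the submitters' processing notes; no source used here gives the intron or strand setting. Barcodes with at least 500 UMIs and 300 genes were kept and called human when 90% of UMIs were human. Doublets were called against simulated doublets, at an assumed rate of 0.8% per 1000 nuclei, and removed (5.2% to 10.8% per library). Clusters came from 2000 variable genes without the 13 mitochondrial and 55 keratin genes, 30 principal components, 20 neighbours and Leiden resolution 1 (leidenalg 0.10.2), and were named "-like" from marker lists: a name needed at least 3 markers, and over 1/3 of its list, at 20 CPM or more and 2-fold their level elsewhere. Counts were summed per library, overall or per type (at least 20 nuclei), and tested with the quasi-likelihood F test of edgeR 4.0.16 (R 4.3.3, TMM, default low-count filter, all 6 libraries, 1 mean per group), with Benjamini-Hochberg adjusted p under 0.05 over all genes tested. DESeq2 1.42.0 was an alternative. CPM per library are divided by the library's total human UMIs, or those of the type. Where a gene's UMIs in 1 type are left out, the library's total is kept. The tests were tested on simulated data with known changes. Members averaging at least 1 CPM, past the test's threshold or leading an epithelial type are described by library; KRT20, KRT4, KRT1, KRT23, KRT80 and KRT86 were added after their values were seen. The members and gene lists were chosen with earlier results of these data known. Mouse nuclei and mixed barcodes entered no comparison.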

Additional observations from a re-analysis of the deposited data

Results flagged for a closer look

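KRT19 in DATG against KO had differences of opposite sign in different types, with both DATG libraries on 1 side of both KO libraries in each. The share of all genes without overlap was not counted within types. The mean of KRT19 was higher in DATG by 21.4 CPM in erythroid-like, by 4.1 CPM in mesenchyme-like and by 2.61 CPM in neuron-like nuclei. In choroid plexus-like nuclei the difference was -1.3 CPM. It rested on 12 and 11 UMIs in DATG and 6 and 6 in KO. The edgeR log2 fold change there was -0.11 (SE 0.62), so its sign is not resolved. KRT15 in DATG against WT was higher by 59.6 CPM in squamous epithelium-like nuclei, while its difference was -9.19 CPM in endothelial-like nuclei. The endothelial-like nuclei of all libraries together held 12 KRT15 UMIs. These differences between types were not tested.

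Keratin UMIs were also counted outside the human nuclei. Mouse nuclei held keratins at 462 CPM of their human UMIs (173 UMIs, where a count of 0 allows 8.01 CPM). Mixed barcodes held them at 178 CPM (2232 UMIs, where a count of 0 allows 0.239 CPM). Of the keratin features left out of the family, KRT10-AS1 had 1425 UMIs in human nuclei, KRT42P 17, KRT16P3 10 and KRT87P 4.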

How the results depend on the processing

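Of 530 alternative values for 57 results, 509 were rated unchanged. A fold change had to keep its direction and side of the threshold, and a level had to move less than the spread between libraries. A count of keratins called had to stay the same, and a share of nuclei had to lie inside the binomial interval of the main value. In 145 of 150 alternatives for the count of keratins called, the count was 0. The main whole-teratoma fits called 0 of all 26230 genes in each comparison. Counts of 0 where hardly any gene is called say nothing particular to keratins. Leaving out 1 library gave 0 to 3 keratins called in DATG against WT, 0 to 5 in DATG against KO, 0 to 1 in ciliated cell-like nuclei (KO against WT; 0.424% of all genes called where it was 1) and 0 to 2 in gut epithelium-like nuclei (DATG against WT; 1.21% where it was 2). The fits with the most calls had 7.41% of all genes called in DATG against WT and 22.2% in DATG against KO, and the lone library left in a group is assumed to vary like the others. DESeq2 on the 4 KO and WT libraries, chosen after seeing the data, called 2, beside 6.19% of all genes. KRT18 in DATG against WT had a log2 fold change between -1.03 and 0.23 when 1 library was left out, and was positive without WT replicate 2. At Leiden resolution 2 the summed keratin level of squamous epithelium-like nuclei was 954 CPM, where the TP63-low nuclei form their own cluster. Thinned to 2000 UMIs, the share of nuclei with both chain types was 10.9% in squamous, 16.9% in trophoblast and amnion, 5.51% in hepatocyte and 3.39% in gut epithelium-like nuclei, since more UMIs are read per nucleus. Same-numbered libraries deviated together with correlations of 0.43 (DATG and KO), -0.13 (DATG and WT) and 0.10 (KO and WT) over 26230 genes, so the numbers are taken as names only. With the replicate block 0 keratins were called in all 15 counts. The most genes called with it were 16 of 16538, in gut epithelium-like nuclei for DATG against WT. With 2 libraries a group, low members could not be compared: 22 members had 1 to 19 UMIs and 16 had 0.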
